A study of Mus musculus with 6 samples.

Results

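The NRF2 antioxidant genes are 10 genes, namely the transcription factor gene Nfe2l2, its inhibitor gene Keap1 and 8 genes that NRF2 is known to switch on. They were taken by symbol from a list, and all 10 were among the 15903 genes whose counts summed to at least 10, out of 57010 annotated genes. Earlier results of these data were known when the list was made. Hmox1 fell to 34.2% of its control level in bone-marrow-derived macrophages (BMDMs) after excess NaCl. It was the only member past the threshold when the control and NaCl libraries were compared as groups, and it lay at the edge. In that comparison 0.176% of all genes were lower and 0.478% higher. Each NaCl library was also compared with the control library of the same mouse. There Gclm, Prdx1 and Srxn1 fell too, to between 64.1% and 71.8% of control, where 4.3% of all genes were lower and 4.6% higher. Prdx1 and Srxn1 lost this call when mouse 1 was left out. No member was called higher in either fit.

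NRF2, the protein product of Nfe2l2, binds antioxidant response elements in DNA as a partner of small MAF proteins. In unstressed cells KEAP1 holds NRF2 and hands it to a CUL3 ubiquitin ligase, so that it is degraded, and oxidants or electrophiles that modify KEAP1 let NRF2 accumulate. Its targets make and recycle glutathione and thioredoxin, reduce quinones and break down haem, and in macrophages they limit oxidative damage during inflammation and the handling of haem and iron. NRF2 is controlled mostly at the level of the protein, which was not measured in these libraries.

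The study asked how macrophages respond in their transcripts to an increased salt concentration. Bone marrow of Cx3cr1GFP mice on the C57BL/6J background, which carry GFP in the Cx3cr1 locus, was grown in medium with the macrophage growth factor M-CSF. Each of 3 mice gave an untreated control and a culture with 62 mM excess NaCl for 24 h, and so 3 control and 3 NaCl libraries of polyadenylated RNA were sequenced. All libraries therefore share the genotype and the M-CSF culture, the cells sequenced were those that adhered, and the sources used here give neither age nor sex. The 3 replicates of a group are 3 mice, so the spread is that between mice, with 1 library per mouse and condition. No osmolarity control library was analysed here, so salt and osmotic strength cannot be told apart. These are bulk samples, in which fewer cells of a type and less RNA per cell cannot be told apart either.

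Total counts ranged from 4088065 in NaCl replicate 3 to 20123570 in control replicate 3. The 6 macrophage markers were all present, with a summed level of 5406 to 6011 CPM (counts per 1000000, with TMM scaling of library sizes) in control and 6307 to 7366 CPM in NaCl. Of these, Csf1r was higher and Mertk lower in the within-mouse fit, where 4.6% of all genes were higher and 4.3% lower. The mean of Csf1r went from 2083 to 3443 CPM, while 4 of the 6 markers had a fitted change below 0. The 8 neutrophil markers summed to 245 to 533 CPM in control and 265 to 387 CPM in NaCl, with Ly6g at 0.656 CPM or less, and 7 of the 8 had a fitted change below 0. The median fitted change of all genes tested was also below 0, at -0.01 on the log2 scale. Ngp and Mpo were lower within mice (edgeR with a replicate block of the mouse, Benjamini-Hochberg adjusted p = 0.019 and 0.024). In that fit 4.3% of all genes were lower. In control replicate 1, Ngp stood at 48.4% of the mean of the other controls, while Mpo and Elane were highest there among the controls. Dendritic cell markers summed to at most 4.53 CPM, B cell markers to at most 10.4 CPM and stromal markers to at most 4.04 CPM. The erythroid marker Alas2 was at 0.24 CPM or less. Slc5a3, the osmotically induced myo-inositol transporter, checked the treatment and rose from 5.88 ± 1.57 to 100.01 ± 14.6 CPM (SD, n = 3; edgeR, adjusted p = 6.35e-05). Nfat5, the osmotic stress factor gene that drives it, had a log2 fold change of 0.19 (edgeR, adjusted p = 0.668).

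The TMM scaling behind the CPM corrects library sizes for differences in composition. A log2 fold change is the NaCl level over the control level, given with its standard error (SE). Adjusted p-values are Benjamini-Hochberg values with 0.05 as the threshold, over all 15903 genes in the 2 edgeR fits. DESeq2, by its default filter, left genes of low mean count out of its adjustment. The comparison of groups has no term for the mouse, and the study's methods name none either, but the study used DESeq2 and not edgeR. The mouse numbers in the labels pair the libraries, and the blocked fit has a term for each mouse (the replicate block). In edgeR's comparison of groups 1 of 10 members was lower and 0 were higher, where 0.176% of all genes tested were lower and 0.478% higher. With the replicate block 4 of 10 members were lower and 0 higher, against 4.3% of all genes lower and 4.6% higher. DESeq2 called 1 member lower and 0 higher without the block (0.975% and 1.54% of all genes), and 4 lower and 0 higher with it (2.23% and 2.84%). At an unadjusted p under 0.05 without the block, edgeR had 5 members lower (6.01% of all genes) and 0 higher (6.63%). The fitted change was below 0 for 9 members, Keap1 being the exception, and the members' median log2 fold change was -0.31, beside -0.01 for all genes tested. The CPM was lower in 3 of 3 mice for 8 of 10 members, where 23.4% of all genes were. The groups did not overlap, with NaCl lower, for Hmox1, Srxn1, Gsr and Prdx1, which is 4 of 10 beside 10.1% of all genes, and for no member was NaCl the higher group, where 8.92% of all genes were so.

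**Figure D1:**
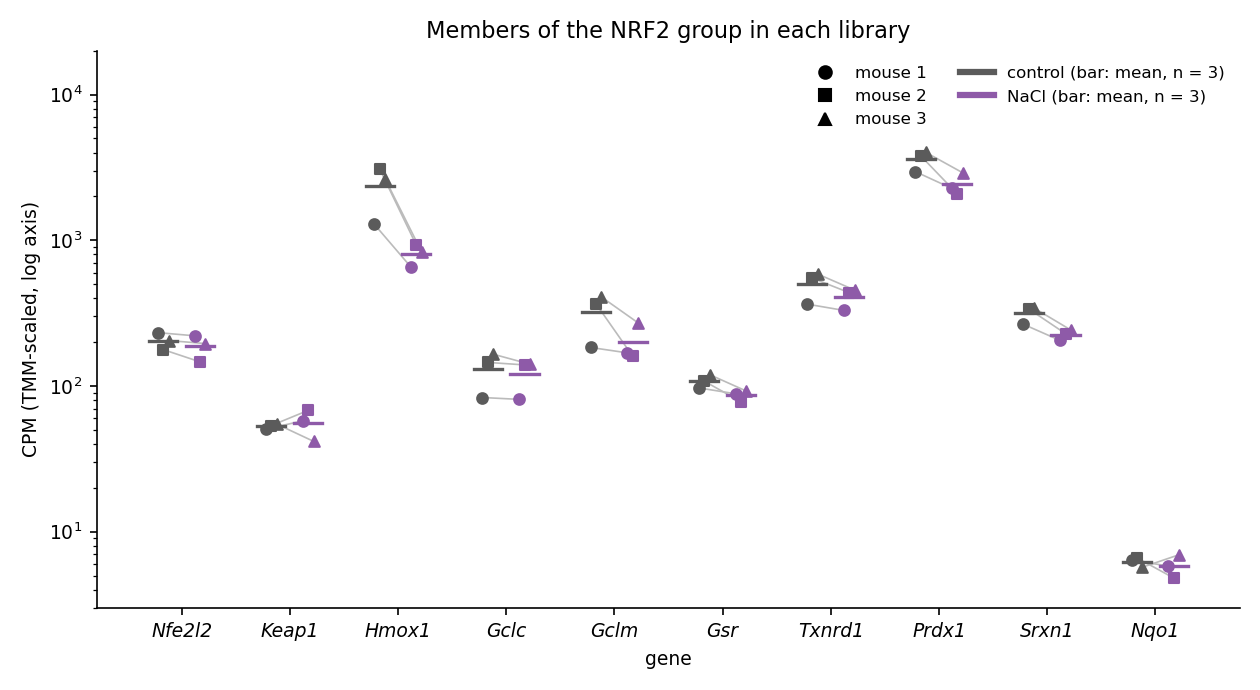
TMM-scaled CPM on a log axis for each member in each library, with control in grey and NaCl in purple, the symbols standing for mice 1 to 3, lines joining the libraries of a mouse and bars the mean of 3. For Hmox1 the 3 NaCl libraries, at 655 to 925 CPM, sit below the 3 controls, at 1291 to 3101 CPM, while the groups overlap for Nfe2l2, Keap1, Nqo1, Gclc, Gclm and Txnrd1.

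**Figure D2:**
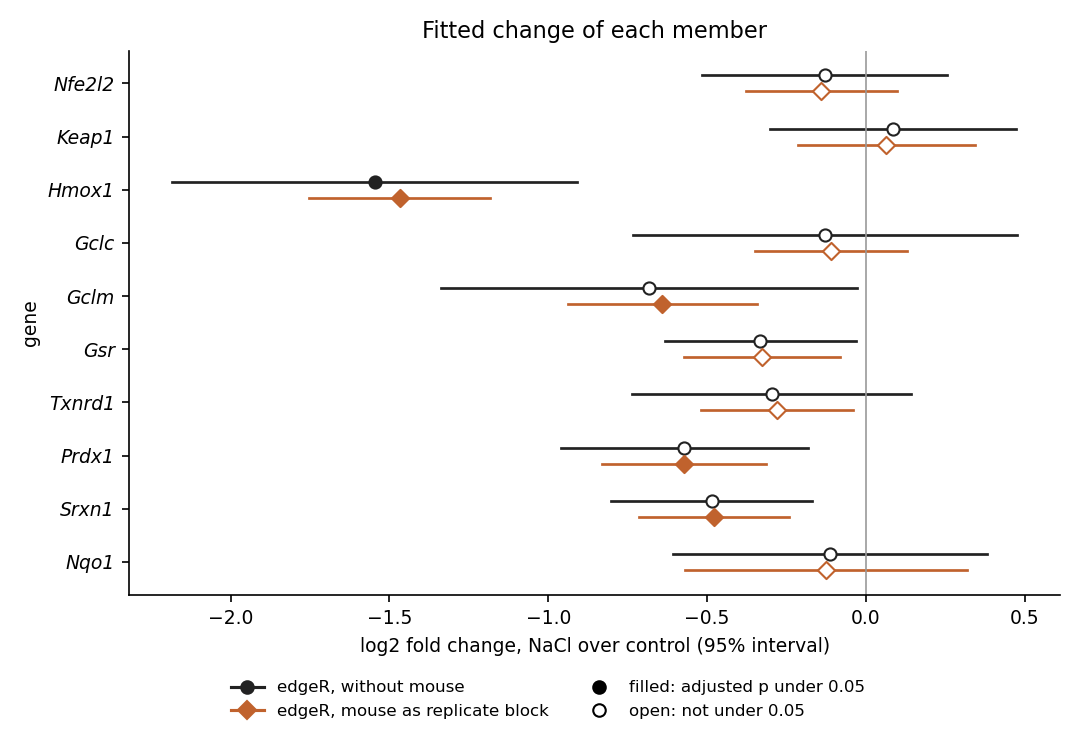
Fitted log2 fold change of NaCl over control with its 95% interval for each member, from edgeR without the mouse (black circles) and from edgeR with the replicate block (orange diamonds), filled where the adjusted p was under 0.05. Hmox1 is filled in both fits, Gclm, Prdx1 and Srxn1 only with the block, and the remaining 6 in neither.

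Nfe2l2 and Keap1, the genes of the regulator and its inhibitor, did not pass the test in either fit. Nfe2l2 (ENSMUSG00000015839.7, chromosome 2) was at 232, 178 and 205 CPM in control replicates 1 to 3 and at 221, 146 and 195 CPM in NaCl replicates 1 to 3. Each mouse's NaCl library was slightly below its control, and the groups overlapped. The mean was 205 ± 27.3 CPM in control and 188 ± 37.9 CPM in NaCl (SD, n = 3 each), a log2 fold change of -0.13 (SE 0.17, edgeR adjusted p = 0.81). Its 95% interval ran from -0.51 to 0.26 without the block and from -0.38 to 0.10 with it. Keap1 (ENSMUSG00000003308.16, chromosome 9) was at 50.5, 53.5 and 54.7 CPM in control and at 57.7, 68.0 and 41.7 CPM in NaCl. The controls lay close together, and the NaCl libraries lay on either side of them, above in mice 1 and 2 and below in mouse 3. The means were 52.9 ± 2.19 and 55.8 ± 13.3 CPM (edgeR, log2 fold change 0.09, SE 0.17, adjusted p = 0.887; interval -0.30 to 0.47). In the GENCODE M21 gene models 10.9% of the exonic bases of Keap1 overlap genes on the opposite strand and 6.17% of its sequence, read in 75-base windows, is shared with Gm16754, so its count is less certain.

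Hmox1 (ENSMUSG00000005413.9, chromosome 8) encodes the inducible haem oxygenase, which cleaves haem into biliverdin, carbon monoxide and iron. It was at 1291, 3101 and 2648 CPM in control and at 655, 925 and 829.8 CPM in NaCl, from 3464 counts or more in every library. All 3 NaCl libraries lay below all 3 controls, and replicate 1 was the lowest of its group in both conditions. The mean fell from 2347 ± 942 to 803 ± 137 CPM (SD, n = 3 each), a log2 fold change of -1.55 (SE 0.29, 95% interval -2.19 to -0.91, edgeR adjusted p = 0.048). The NaCl to control ratio was -0.98, -1.75 and -1.67 on the log2 scale in mice 1, 2 and 3. In the blocked fit the log2 fold change was -1.47 (SE 0.14, edgeR adjusted p = 4.54e-08), and without it DESeq2 gave an adjusted p of 1.62e-05. Hmox1 took 0.133 to 0.303% of the counts of a control library and 0.0678 to 0.0879% of those of a NaCl library.

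The call of Hmox1 without the block lay at the edge of the threshold, as the last of the 104 genes called. Its edgeR adjusted p was 0.0501 with median-ratio size factors, 0.0598 with edgeR's own expression filter and 0.0626 in limma-voom. Leaving out any 1 library other than control replicate 1 also put its edgeR adjusted p above 0.05, at 0.205 without control replicate 3, 0.0693 without NaCl replicate 1, 0.135 without NaCl replicate 2 and 0.227 without NaCl replicate 3. It was weakest without control replicate 2, at a log2 fold change of -1.28 (edgeR adjusted p = 0.304), and strongest without control replicate 1, at -1.83 (edgeR adjusted p = 0.00307). With the block it passed whichever mouse was left out, at -1.70 to -1.32, and the direction was the same in all 19 alternatives. Control replicate 1 stood at 44.9% of the mean of the other controls for Hmox1, and the part of that library in the spread was not tested.

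Gclc and Gclm encode the catalytic and the modifier subunit of glutamate-cysteine ligase, the first enzyme of glutathione synthesis. Gclc (ENSMUSG00000032350.10, chromosome 9) was at 83.3, 145 and 165 CPM in control and at 80.9, 139.5 and 141 CPM in NaCl. Replicate 1 was low in both groups, and the groups overlapped. Its means of 131 ± 42.7 and 120.5 ± 34.3 CPM gave a log2 fold change of -0.13 (SE 0.27, edgeR adjusted p = 0.892), and with the block the interval was -0.35 to 0.13. Gclm (ENSMUSG00000028124.16, chromosome 3) was at 184, 367 and 408 CPM in control and at 169, 159.7 and 271 CPM in NaCl. Control replicate 1 lay among the NaCl libraries, so the groups overlapped, while each NaCl library lay below the control of its own mouse. The means were 319.7 ± 119 and 199.8 ± 61.8 CPM, and the comparison of groups gave a log2 fold change of -0.68 (SE 0.29, edgeR adjusted p = 0.378). With the replicate block Gclm fell by 0.64 on the log2 scale (SE 0.14, edgeR adjusted p = 0.00443), and it passed whichever mouse was left out, at -0.35 without mouse 2 to -0.89 without mouse 1. Its fall was uneven, with log2 ratios of -0.12, -1.20 and -0.59 in mice 1, 2 and 3. The count of Gclm is less certain. In the GENCODE M21 models 4.71% of its exonic bases overlap Gm17494 or Gm6061, and 3.50% of its 75-base windows are shared with other genes.

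The ratio of Gclm to Gclc CPM was 2.21, 2.53 and 2.47 in control and 2.09, 1.14 and 1.92 in NaCl. The groups of ratios did not overlap, and mouse 2 showed the widest gap. The log2 ratio was lower by 0.53 in NaCl on average, and an exact two-sided permutation test, flipping the sign of the difference within each mouse, gave p = 0.25, the smallest that 3 pairs allow. This ratio was chosen after the values were seen and was 1 of 3 that were tested, with a Benjamini-Hochberg adjusted p of 0.25 for each.

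Gsr (ENSMUSG00000031584.17, chromosome 8) encodes glutathione reductase, which returns oxidised glutathione to its reduced form with NADPH. It was at 97.0, 108 and 119.7 CPM in control and at 88.4, 78.0 and 92.2 CPM in NaCl. The groups did not overlap, although the lowest control and the highest NaCl library were close. Its means of 108 ± 11.4 and 86.2 ± 7.39 CPM differed by a log2 fold change of -0.33 (SE 0.13, edgeR adjusted p = 0.351), and with the block the adjusted p was 0.0885, so that it did not pass in either fit.

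Txnrd1 (ENSMUSG00000020250.12, chromosome 10) encodes the cytosolic thioredoxin reductase, a selenoprotein that keeps thioredoxin reduced. It was at 365, 549.8 and 586 CPM in control and at 330.2, 437 and 455 CPM in NaCl. The libraries of mouse 1 were the lowest of both groups, and control replicate 1 lay within the range of the NaCl libraries. Its means of 500.2 ± 119 and 408 ± 67.6 CPM gave a log2 fold change of -0.30 (SE 0.20, edgeR adjusted p = 0.589; with the block -0.28, adjusted p = 0.142).

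Prdx1 encodes a peroxiredoxin that reduces hydrogen peroxide with electrons from thioredoxin, and Srxn1 encodes sulfiredoxin, which restores peroxiredoxins that have been overoxidised. Prdx1 (ENSMUSG00000028691.13, chromosome 4) was at 2963, 3808 and 4007 CPM in control and at 2269.5, 2081 and 2906 CPM in NaCl. The groups did not overlap, and the highest NaCl library, from mouse 3, lay just under control replicate 1. Its means were 3593 ± 554 and 2419 ± 432 CPM (edgeR, log2 fold change -0.57, SE 0.17, adjusted p = 0.209), and with the replicate block it fell to 67.2% of control (adjusted p = 0.00343). Its count is less certain, since 4.03% of the 75-base windows of Prdx1 are shared with 2 other genes. Srxn1 (ENSMUSG00000032802.9, chromosome 2) was at 265, 338 and 342 CPM in control and at 205, 229 and 242 CPM in NaCl. All NaCl libraries lay below all controls, and control replicate 1 lay well below the other controls. Its means were 315 ± 43.3 and 225 ± 18.6 CPM (edgeR, log2 fold change -0.49, SE 0.14, adjusted p = 0.189), and with the replicate block it fell to 71.8% of control (adjusted p = 0.00766). The blocked call of Prdx1 was lost without mouse 1 (edgeR adjusted p = 0.0569), and that of Srxn1 without mouse 1 (0.103) or mouse 3 (0.054).

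Nqo1 (ENSMUSG00000003849.9, chromosome 8) encodes NAD(P)H quinone dehydrogenase, widely used as a readout of NRF2 activity, and it was the least abundant member. It was at 6.37, 6.61 and 5.70 CPM in control and at 5.81, 4.80 and 6.95 CPM in NaCl, from 29 to 113 counts per library. The groups overlapped, and mouse 3 went the other way from mice 1 and 2. The log2 fold change was -0.11 (SE 0.22, edgeR adjusted p = 0.883), with a 95% interval of -0.61 to 0.38.

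**Figure D3:**
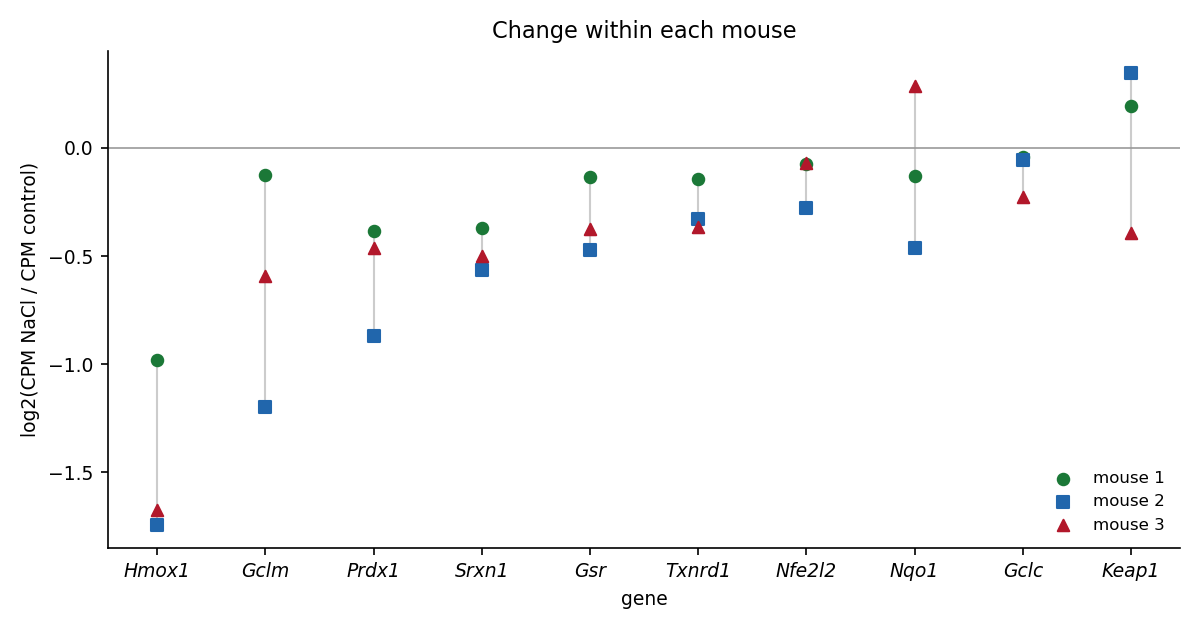
Log2 ratio of NaCl to control CPM within mouse 1 (green circles), mouse 2 (blue squares) and mouse 3 (red triangles) for each member. Members are ordered by the log2 fold change of the edgeR fit with the replicate block, and a line at 0 stands for no difference. Hmox1 is lowest in every mouse, at -0.98, -1.75 and -1.67, and Keap1 and Nqo1 have mice on both sides of 0.

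Within each mouse the Hmox1 ratio was below that of each of the other 9 members, with differences from -2.09 to -0.55 on the log2 scale. Nearest to it were Gclm in mouse 2 and Prdx1 in mouse 1. Hmox2, the constitutive haem oxygenase, had 77.7 ± 3.10 CPM without and 77.6 ± 9.74 CPM with NaCl (SD, n = 3 each). The ratio of Hmox1 to Hmox2 CPM was 16.0, 39.99 and 35.5 in control and 7.81, 11.2 and 12.5 in NaCl. The ratio of Hmox1 to Nqo1 CPM was 203, 469 and 465 in control and 113, 193 and 119 in NaCl. Neither pair of groups overlapped, and each of these ratios, also chosen after the values were seen, gave p = 0.25 in the same exact permutation test within mice, again the smallest possible.

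Levels can be set side by side between genes only per length of transcript, as CPM per kilobase of exon in the GENCODE M21 models. In control, Hmox1 led at 737, 1771 and 1512 CPM per kilobase, and Prdx1 followed at 974, 1251 and 1317. These genes overlapped there, and in NaCl they did not, with Prdx1 at 746, 684 and 955 and Hmox1 at 374, 528 and 474 CPM per kilobase. Srxn1 came next, at a mean of 112 CPM per kilobase in control and 79.9 in NaCl, apart from its neighbours in both groups. Txnrd1, Nfe2l2, Gclm, Gsr and Gclc lay between 34.8 and 70.6 CPM per kilobase in control, each overlapping the next. In NaCl, Txnrd1 and Nfe2l2 overlapped at means of 57.5 and 49.4 CPM per kilobase. Gclc, Gclm and Gsr overlapped one another at 31.3 to 32.0 CPM per kilobase. Gclm also overlapped Nfe2l2, at 43.1 in NaCl replicate 3 beside 38.6 for Nfe2l2 in NaCl replicate 2. Keap1 and then Nqo1 were lowest in both groups, at 11.3 and 4.01 CPM per kilobase in control and 11.9 and 3.77 in NaCl, without overlap between them. Together the 10 members took 0.572 to 0.844% of the counts in control and 0.406 to 0.529% in NaCl.

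Control replicate 1 was the lowest control library for 8 of 10 members, and NaCl replicate 1 was the lowest NaCl library for 4 of 10. The shares of all genes for which this held were not computed, so these counts cannot be read as particular to the members. Control replicate 1 stood at 47.4% of the mean of the other controls for Gclm, 53.7% for Gclc and 64.2% for Txnrd1. Neutrophil markers were mixed in the same library. Ngp, Ltf, S100a8, S100a9 and Camp stood at 48.4 to 54.7% of the mean of the other controls. Mpo, at 12.6 CPM beside 11.7 and 9.13, and Elane, at 2.39 CPM beside 2.08 and 1.92, were highest there. The libraries of mouse 1 were the lowest of both groups for Hmox1, Gclc, Txnrd1 and Srxn1. How far this entered the comparison of groups was not tested beyond the blocked fit and the fits without these libraries.

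Promoters of 7 of the 10 members were held in RefSeq on GRCm38.p6, each from 250 bases before the start site to 50 after it, and those of Hmox1, Gclc and Gsr were not among them. They were searched on both strands for the core of the antioxidant response element, TGACNNNGC, and for the AP-1 element TGACTCA. The core was found in 5 of the 7 members, and in 14.0% of 27025 genes with a promoter. It starts 134 bases before the start site in Gclm, 240 in Nfe2l2, 133 in Prdx1 and 92 in a single promoter of Txnrd1, and 28 bases after it in Srxn1. The AP-1 element was found in Prdx1 and Srxn1, and in 5.95% of genes. Keap1 and Nqo1 held neither in this window. The promoters of Gclm, at chr3:122245307-122245606, Prdx1, at chr4:116685349-116685648, and Srxn1, at chr2:152105274-152105573, all on the plus strand, are shown because these members fell in the within-mouse fit. Capitals mark every match to either motif on either strand, and in Prdx1 a core overlaps an AP-1 match. A match is a description of the letters and not of binding, which was not measured.
Gclm: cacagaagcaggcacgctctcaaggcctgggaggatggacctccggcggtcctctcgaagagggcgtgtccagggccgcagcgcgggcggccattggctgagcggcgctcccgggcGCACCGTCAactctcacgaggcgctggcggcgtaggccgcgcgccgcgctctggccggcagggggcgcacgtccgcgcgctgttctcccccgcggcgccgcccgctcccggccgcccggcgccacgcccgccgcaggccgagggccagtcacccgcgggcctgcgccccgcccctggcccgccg
Prdx1: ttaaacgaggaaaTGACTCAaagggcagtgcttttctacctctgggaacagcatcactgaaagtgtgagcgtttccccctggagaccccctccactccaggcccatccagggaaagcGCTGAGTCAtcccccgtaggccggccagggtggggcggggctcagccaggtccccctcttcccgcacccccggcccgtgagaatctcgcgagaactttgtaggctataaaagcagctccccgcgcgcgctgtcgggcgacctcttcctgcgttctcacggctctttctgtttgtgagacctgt
Srxn1: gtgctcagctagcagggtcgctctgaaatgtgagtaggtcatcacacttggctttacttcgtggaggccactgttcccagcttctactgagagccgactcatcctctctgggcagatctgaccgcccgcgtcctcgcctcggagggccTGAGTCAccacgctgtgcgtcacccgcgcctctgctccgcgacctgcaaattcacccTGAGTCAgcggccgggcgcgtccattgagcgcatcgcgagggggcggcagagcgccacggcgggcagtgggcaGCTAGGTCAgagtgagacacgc

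Beyond the members, 60 further antioxidant genes were listed by role, of which 59 were tested. In edgeR's comparison of groups 0 of 59 were higher and 0 lower. At an unadjusted p under 0.05, 11 were lower (6.01% of all genes) and 4 higher (6.63% of all genes). Without the block, DESeq2 called Sqstm1 and Slc40a1 lower (0.975% of all genes) and Mgst2 higher (1.54% of all genes). With the replicate block 9 of 59 were lower (4.3% of all genes) and 3 higher (4.6% of all genes), the latter a share near the background, and their median log2 fold change was -0.04, beside -0.02 for all genes and -0.30 for the members in the same fit. The values that follow are from that fit, with edgeR's Benjamini-Hochberg adjusted p.

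Slc40a1, the gene of the iron exporter ferroportin, fell the most of these. It was at 280, 190.4 and 145 CPM in control and at 118, 54.2 and 60.1 CPM in NaCl. The groups did not overlap, and each mouse showed the fall. It went to 36.7% of control, a log2 fold change of -1.44 (SE 0.13, edgeR adjusted p = 1.95e-08; without the block adjusted p = 0.0971). Of the 7 genes of haem and iron it was the only 1 past the threshold, where 4.3% of all genes were lower and 4.6% higher. The ferritin light chain gene Ftl1 did not pass, with a log2 fold change of -0.42 (edgeR adjusted p = 0.0503). Its groups overlapped, and in mouse 1 its log2 ratio was 0.04. The ferritin heavy chain gene Fth1 had a log2 fold change of -0.09 (edgeR adjusted p = 0.787).

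Among the 8 partners and regulators of NRF2, Sqstm1 and Nfe2l1 were lower, where 4.3% of all genes were. Sqstm1, whose product is an autophagy receptor that binds KEAP1, went from 651 ± 35.0 to 441 ± 72.3 CPM (edgeR, log2 fold change -0.57, adjusted p = 0.00328). Its count is uncertain, since 17.3% of its exonic bases overlap Mrnip on the opposite strand. Nfe2l1, a relative of Nfe2l2, went from 271 ± 14.6 to 209 ± 10.8 CPM (edgeR, log2 fold change -0.38, adjusted p = 0.0398). Bach1, the repressor of Hmox1 that haem inactivates, was at 149 ± 39.1 and 142 ± 39.2 CPM (edgeR, adjusted p = 0.769). The small MAF partner genes Mafg, Mafk and Maff did not pass, at 160.5, 31.2 and 4.07 CPM in control and 135, 31.6 and 3.30 CPM in NaCl. Cul3 and Rbx1, of the ligase that takes up NRF2 from KEAP1, did not pass either, at 116 and 54.0 CPM in control and 117 and 47.0 CPM in NaCl.

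Of 16 genes of glutathione synthesis and use, 4 fell and 1 rose with the block, where 4.3% of all genes fell and 4.6% rose, so that the count that rose is near the background. Those that fell were Gsta3, Mgst1 and Gsto1, of glutathione transferase families, and Slc3a2, the heavy chain that partners the cystine importer. Gsta3 went from 15.2 ± 4.71 to 8.15 ± 3.13 CPM (edgeR, adjusted p = 0.000829), Slc3a2 from 408 ± 103 to 298.5 ± 79.5 CPM (0.013), Mgst1 from 96.8 ± 4.93 to 71.6 ± 9.24 CPM (0.0183) and Gsto1 from 94.7 ± 4.19 to 70.9 ± 13.6 CPM (0.0303). Mgst2, a transferase that also makes leukotriene C4, rose from 6.93 ± 1.50 to 12.7 ± 2.26 CPM (edgeR, log2 fold change 0.86, adjusted p = 0.0027). The cystine importer gene itself, Slc7a11, did not fall with Slc3a2. It was higher in each mouse but did not pass (edgeR, log2 fold change 0.35, adjusted p = 0.165).

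Of 10 genes of the thioredoxin and peroxiredoxin system, 2 fell with the block (4.3% of all genes), Txnrd3 and Prdx6, and 1 rose (4.6% of all genes), Txnip. Txnrd3, a thioredoxin glutathione reductase, went from 7.05 ± 0.406 to 4.05 ± 0.622 CPM (edgeR, adjusted p = 0.0169), and the peroxiredoxin gene Prdx6 from 129 ± 26.6 to 93.8 ± 6.22 CPM (0.0213). Txnip, the gene of a protein that binds and inhibits thioredoxin, went from 392 ± 148 to 596 ± 148 CPM (edgeR, adjusted p = 0.000693), and 19.4% of its exonic bases overlap a gene on the opposite strand. Among 6 genes that supply NADPH, only Idh1, the cytosolic isocitrate dehydrogenase gene, passed, where 4.6% of all genes rose. It went from 211 ± 48.5 to 314 ± 80.4 CPM (edgeR, adjusted p = 0.00164). None of 9 genes of detoxification and export and none of the 3 tested genes of superoxide and peroxide removal passed in edgeR with or without the block, or in DESeq2, and none had an unadjusted p under 0.05 in edgeR without it. Of the 12 genes called here with the block, Slc40a1, Gsta3, Mgst2 and Txnip passed whichever mouse was left out, and the other 8 lost the call in part. Idh1 lost it without mouse 1 (edgeR adjusted p = 0.0656), Sqstm1 without mouse 3 (0.124), Txnrd3 without mouse 1 or 2 (0.0573 and 0.133) and Gsto1 without mouse 2 or 3 (0.0679 and 0.139). Nfe2l1, Slc3a2, Mgst1 and Prdx6 lost it without mouse 1 or mouse 3, at edgeR adjusted p-values of 0.0649 to 0.226.

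**Figure D4:**
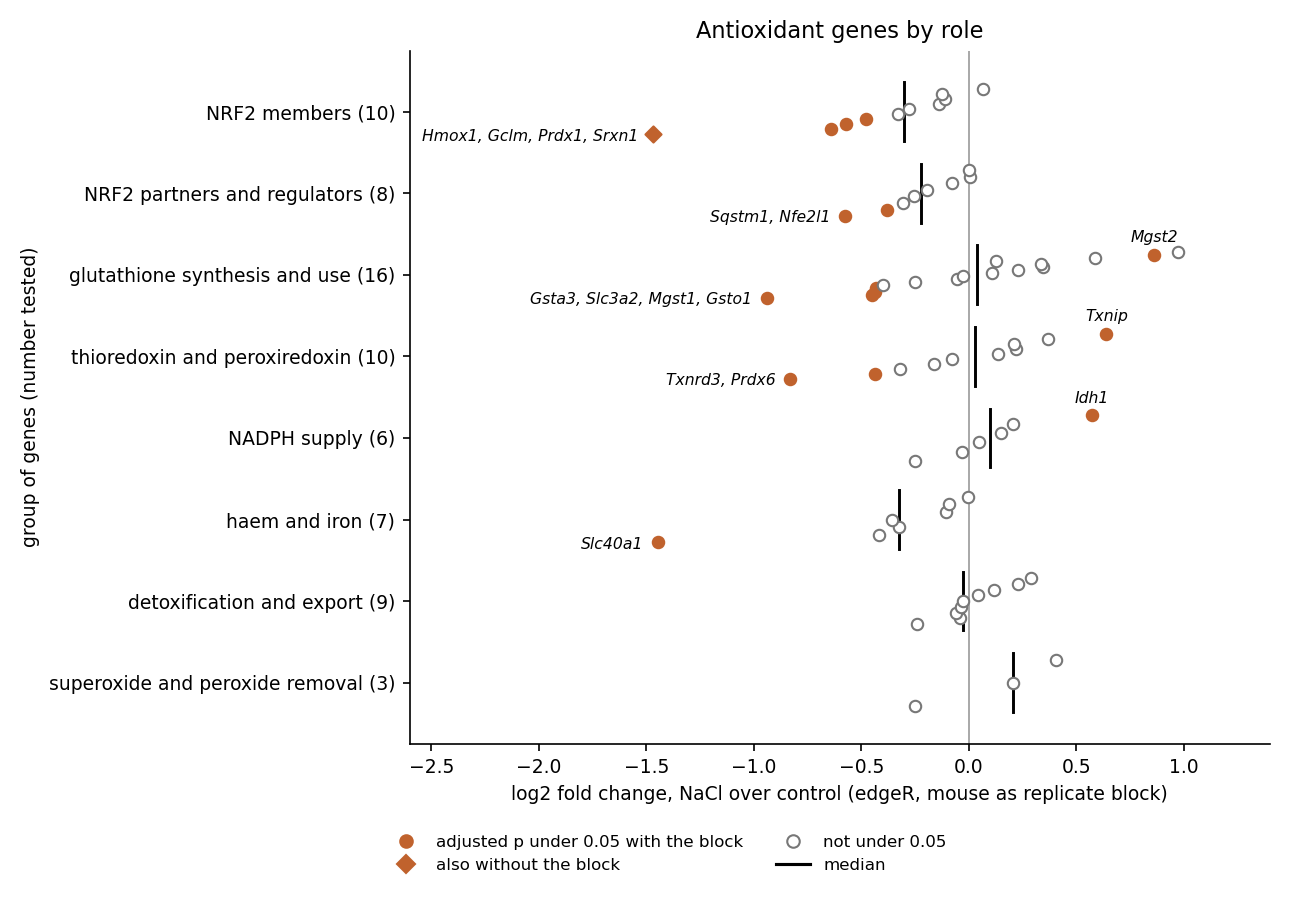
Log2 fold change of NaCl over control from edgeR with the replicate block, 1 point per gene, for the members and for 7 further groups of antioxidant genes, with the number tested in brackets and a black bar at each median. Orange points passed the threshold and are named beside their group, from the lowest up on the left of 0; the median of the members, at -0.30, lies left of 0, and Hmox1 and Slc40a1 stand farthest to the left.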

How the data were processed

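RNA was measured in 6 libraries of BMDMs, 3 control and 3 NaCl. The authors trimmed 75-base single-end reads with fastp 0.20.0, aligned them to mm10 with STAR 2.7.10b and deposited a raw read count for every gene. A normalized signal, which the authors deposited too, is that count over a DESeq2 size factor. This table gave the gene symbols and equalled the raw counts after rescaling. All per-sample columns were used. The annotation named, GENCODE vM32, belongs to another build, so genes are placed by chromosome only, and lengths and shared windows came from GENCODE M21 by identifier.

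Raw counts were tested with edgeR 4.0.16 in R 4.3.3 (TMM, quasi-likelihood, total count of at least 10), with Benjamini-Hochberg adjustment over 15903 genes. The code was tested on simulated data. DESeq2 1.42.0, limma 3.58.1, other scalings, filters and thinning were alternatives. The labels give the mouse of each library, and the pairing rests on them. Deviations from the group means correlated across genes at 0.43, 0.15 and 0.22 between libraries of the same mouse and at -0.35 to 0.12 between others. For mouse 2 the 0.15 was close to the 0.12 between control replicate 3 and NaCl replicate 2, so these values do not establish its pair. Ratios were tested by exact permutation of signs within mice, with scipy 1.17.1 for the adjustment.

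All 10 members were named with every library's value, and of the wider lists the 8 partners and regulators and every gene past 0.05 in either edgeR fit. Ftl1, Fth1, Hmox2, Slc7a11 and the ratios were chosen after their values were seen. Members and lists were chosen with earlier results of these data known.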

Additional observations from a re-analysis of the deposited data

How the results depend on the processing

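Precision is limited by 3 mice per group and, in NaCl replicate 3, by 4088065 counts, which left 1235 of the genes tested without a count there. Without the block 76 genes were higher and 28 lower, with 1 member lower (Hmox1) and 0 of the wider antioxidant genes called. The replicate block gave 732 higher and 684 lower, with 4 members lower and 3 wider genes higher and 9 lower. Without mouse 1, 2 or 3 the blocked fit gave 469, 758 and 715 higher, 417, 661 and 585 lower, 2, 4 and 3 members lower, 2, 4 and 6 wider genes higher and 4, 12 and 3 lower. DESeq2 gave 245 higher and 155 lower, with 1 wider gene higher and 2 lower, and with the replicate block 452, 354, 4 members lower and 3 and 6 wider genes. A minimum total count of 1 gave 362, 300, 3 members lower and 3 and 3 wider genes, and thinning with the replicate block 502, 416, 4 and 3 and 5. An adjusted p under 0.01 left 17 higher and 1 lower, and 0 members. Members lower were also 0 with edgeR's expression filter, limma-voom and median-ratio factors. Leaving out single libraries gave 8 to 123 higher, 0 to 46 lower, 0 to 1 members lower and 0 to 1 wider genes lower. The number of members higher was 0 in all of these. The causes were not tested. Of 532 fitted changes of 28 named genes under 19 alternatives, 510 kept their direction. The 22 that reversed belong to genes with a fitted change near 0. They were Keap1 -0.0705 and Nqo1 0.0712 (blocked, without mouse 2), Mafk -0.10 and -0.11 (thinned, without and with the block) and -0.0614 and -0.0376 (blocked, without mouse 1 or 2), and Cul3 -0.0070 (minimum count of 1), -0.0025 (limma-voom) and -0.0040 and -0.0665 (blocked, without mouse 1 or 3). Leaving out single libraries, log2 fold changes ran from -0.26 to 0.0303 for Nfe2l2, -0.0738 to 0.25 for Keap1, -0.23 to 0.0281 for Nqo1, -0.36 to 0.10 for Gclc, -0.32 to 0.17 for Bach1, -0.16 to 0.23 for Mafk and -0.0871 to 0.0837 for Cul3. No scaling moved the median of all genes by 0.1.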
